A study of Homo sapiens with 4 samples.

Results

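The response of DU145 cells to No.10-3 at 5 µM was described as the difference between 1 array of treated cells and 1 array of vehicle cells. DU145 is a standard line of human prostate cancer cells whose growth does not need androgen, and No.10-3 is described in the labels as an inhibitor of PSF. A gene was described when the higher of its 2 signals lay above the background level of that array, set at the 95th percentile of its negative controls. This rule kept 6070 of 17687 named genes (34.3%), of which 5280 were above background on both arrays, 678 on the No.10-3 array only and 112 on the vehicle array only. The choice uses signal level, but near background a gene can enter only through the array where it is higher, so it is not independent of the difference. The median difference was 0.08 under this rule, 0.03 over genes above background on both arrays and -0.003 without a filter on signal. The 4 arrays of the series held DU145 cells after 48 h in serum-containing medium with No.10-3 at 5 µM, with C-30 at 0.5 µM, with C-30 at 2 µM, or with vehicle. C-30 is described as a PSF inhibitor too, and its arrays are given beside those of No.10-3 at their own doses. Each condition had 1 array of 1 cell line at 1 time, so no value has an error and no test was possible. Every statement describes these arrays, and their number limits the precision.

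PSF, the product of SFPQ, is a nuclear RNA-binding protein that works with NONO and PSPC1 in transcription, in splicing and in paraspeckles. A cell that divides makes the RNA of its mitotic genes late in the cycle, in G2, through a short promoter element called the CHR that is bound by repressive and activating complexes in turn. A CCAAT box bound by NF-Y often lies near it. Cholesterol synthesis is set by another switch: SREBP-2, the product of SREBF2, is held in the endoplasmic reticulum by SCAP and INSIG proteins when sterols are plentiful. When they are scarce it is cut free and switches on the genes of sterol synthesis, its own gene included, through sterol regulatory elements. SREBP-1, from SREBF1, mainly drives the genes of fatty acid synthesis.

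Promoters of genes that stood out are shown first, because 2 groups of genes with known promoter elements lay at opposite ends of the response. The windows run 5′ to 3′ on the strand of the gene and end at most 40 bases after the match or at the start of the gene. They come from RefSeq promoters of GRCh38.p14. In the first 6, all from mitotic genes at least 2-fold higher with No.10-3, capitals mark the CHR letters TTTGAA on either strand and the CCAAT box letters CCAAT on either strand. In the last, from SREBF2, capitals mark the sterol regulatory element letters TCACNCCAC and a CCAAT box match.
CCNB2 (chr15:59105077-59105145, + strand): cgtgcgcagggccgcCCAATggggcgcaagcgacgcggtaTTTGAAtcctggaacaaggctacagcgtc
DLGAP5 (chr14:55191649-55191734, - strand): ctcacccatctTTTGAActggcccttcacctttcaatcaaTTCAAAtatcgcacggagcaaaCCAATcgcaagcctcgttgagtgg
TOP2A (chr17:40418002-40418087, - strand): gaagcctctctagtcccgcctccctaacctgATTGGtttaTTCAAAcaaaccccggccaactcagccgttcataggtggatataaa
KIF11 (chr10:92593062-92593129, + strand): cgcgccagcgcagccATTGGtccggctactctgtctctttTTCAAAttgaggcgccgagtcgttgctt
DEPDC1 (chr1:68497083-68497149, - strand): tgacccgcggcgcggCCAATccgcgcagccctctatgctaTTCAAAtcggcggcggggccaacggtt
ANLN (chr7:36389802-36389861, + strand): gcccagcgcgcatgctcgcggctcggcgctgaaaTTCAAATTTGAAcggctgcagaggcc
SREBF2 (chr22:41832932-41833020, + strand): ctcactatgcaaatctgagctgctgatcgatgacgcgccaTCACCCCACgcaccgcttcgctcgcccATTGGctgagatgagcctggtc

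The CHR match nearest the start of the gene began 29 bases before it in CCNB2, 28 in KIF11, 27 in DEPDC1 and 20 in ANLN. Those shown began 109 bases before it in DLGAP5 and 151 in TOP2A. The sterol match in SREBF2 began 133 bases before the start. A CCAAT box match stood within the window of each of these but ANLN. Promoters of 300 bases, 250 before and 50 after the start of the gene, were searched on both strands. The letters TTTGAA occurred in 15.4% of 27305 RefSeq promoters and in 9.35% of the 5124 promoters of genes above background. They occurred in 36 of 58 promoters (62.1%) of the measured mitotic genes and in 0 of 28 promoters of DNA replication genes. CCAAT occurred in 35.7% of all promoters, in 70.7% of those of mitotic genes and in 67.9% of those of replication genes. Both together occurred in 6.08% of all promoters and 48.3% of those of mitotic genes. A CCAAT and a TTTGAA match can share at most 1 base. The sterol letters, in which N is any base, occurred in 1.15% of all promoters and in 2 of 58 promoters of genes at least 2-fold lower. Of the 21 sterol genes with a promoter in the table, SREBF2 alone held them. A match is a description of these letters, not of a site in use.

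Of the 6070 genes, 274 (4.51%) passed 2-fold upwards with No.10-3 and 68 (1.12%) passed 2-fold downwards. Together these were 5.63%, and 80.1% of them were higher. Counting only genes above background on both arrays left 151 higher (2.86%) and 44 lower (0.833%) of 5280, 3.69% together. The other 123 higher and 24 lower genes were above background on 1 array, and the bound against the level of the other array reached 2-fold for 22 and 3 of them. The balance of the 2 directions depended on the scaling, as 70.0% were higher after quantile normalization over named genes, 68.3% after centring each array and 59.1% after a lowess correction on signal. The median difference was 0.08, with quartiles of -0.23 and 0.41. A positive difference was found for 56.9% of the genes and a negative one for 43.0%, and counts of higher and lower genes in a list are to be read against these shares. Past 4-fold were 7 higher genes and 1 lower one, and only 1 of each of these was above background on both arrays. ZNF747, RBPJ and ZNF57 lay just inside the rule, between 0.0018 and 0.0025 above the level, and MIR205, BICD1 and HSPBP1 just outside it.

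The control probe sets set the scale on which these counts stand. Of the 2023 positive control probe sets that met the same signal rule, 4.10% passed 2-fold upwards and 1.78% downwards, shares near those of the genes. Of 612 negative control probe sets, 46 met it, and 15 of these passed it in each direction. A single gene past 2-fold, above all near background, is therefore not set apart from these positive and negative controls by its size. Whether the positive controls read RNA that itself differs between the arrays was not tested. The 63 ERCC probe sets had a median of -0.16 with a robust SD of 0.13, and none of them passed 2-fold. The spikes bioB, bioC, bioD and cre were lower on the No.10-3 array by differences between -0.32 and -0.41. The spikes dap, lys, phe and thr were lower too, at -0.34, -0.54, -0.28 and -0.34. Background levels were 7.06 with No.10-3, 7.11 and 7.15 with C-30 at 0.5 and 2 µM, and 7.32 with vehicle, so genes higher with No.10-3 entered at a lower level than genes lower with it. The part of these features in the differences was not tested. Pearson correlations between arrays across genes lay between 0.979 and 0.987, and genes are not independent replicates.

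**Figure D1:**
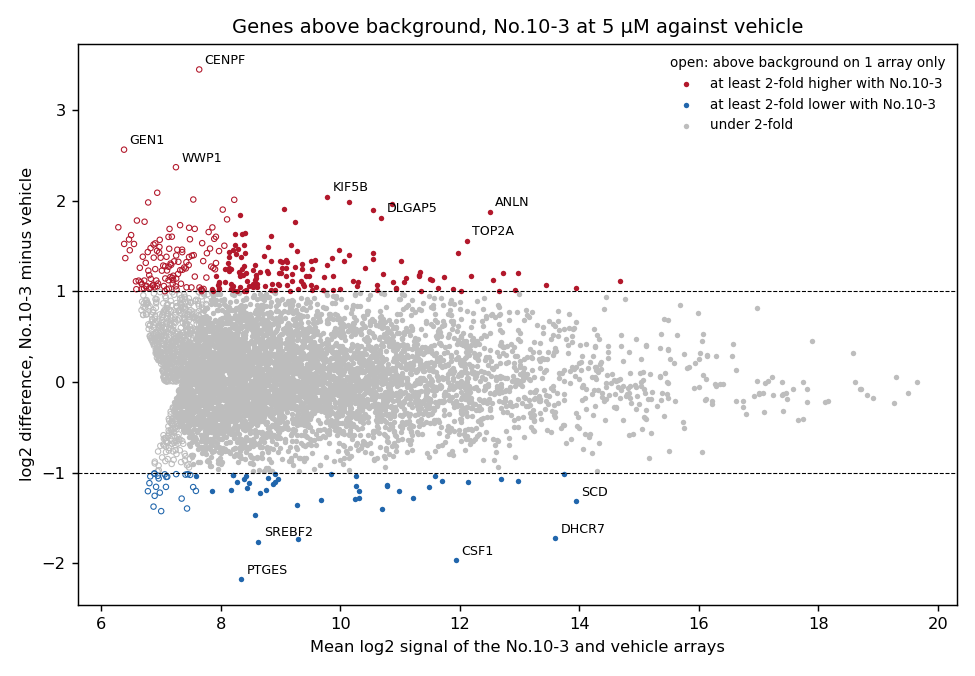
Each point is 1 of the 6070 genes, with its mean log2 signal on the No.10-3 and vehicle arrays on the x axis and the log2 difference, No.10-3 minus vehicle, on the y axis. Red points are the 274 genes past 2-fold upwards, blue points the 68 past it downwards, open points lie above background on 1 array only, and the dashed lines mark a difference of 1 either way.

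The cell type was examined by its markers. KRT8, KRT18, KRT19, KRT7 and EPCAM, markers of simple epithelium, were above background on both arrays, while CDH1 and the basal keratin gene KRT5 were not. EPCAM was barely above the level with vehicle, at 7.33 against 7.32. KRT8 had a signal of 13.61 with No.10-3 and 12.98 with vehicle. None of the 10 leukocyte, 6 fibroblast and 5 endothelial markers measured was above background on either array. The leukocyte markers lay between 3.04 and 4.85 with No.10-3 and between 3.13 and 5.64 with vehicle. KLK2, KLK3 and TMPRSS2, genes of luminal prostate epithelium, were also under the level on both arrays, with KLK3 the highest of them at 6.47 with No.10-3 and 6.81 with vehicle.

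The gene of the target differed little between the arrays. SFPQ (chr1:35176380-35193145, GRCh38.p14 as for all genes) had a signal of 12.61 with No.10-3, 12.60 and 12.68 with C-30 at 0.5 and 2 µM, and 12.59 with vehicle, a difference of 0.02 for No.10-3. The signals of PSPC1 were 9.85 with No.10-3 and 9.91 with vehicle, and those of NONO 12.17 and 12.48, a difference of -0.31 that lies under the lower quartile of all genes. All 9 other measured genes of paraspeckle proteins were above background on both arrays, 7 were higher, and their median difference was 0.34. The 1 past 2-fold was HNRNPH3, which encodes a splicing regulator, with 13.12 on the No.10-3 array and a difference of 1.12. RBM14, a gene of a coactivator and paraspeckle protein, stood at 11.60 with No.10-3 and 10.79 with vehicle. EWSR1, of the same family of RNA-binding proteins as TAF15, stood at 10.11 and 10.54 on these arrays. Core spliceosome genes had a median of 0.05 over 38 genes with none past 2-fold, and SR and hnRNP genes 0.11 over 40 with HNRNPH3 alone past it.

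Genes of mitosis were higher with No.10-3 than with vehicle. Over 4 lists with 72 measured genes, 60 were higher with No.10-3, 18 were at least 2-fold higher and none was 2-fold lower, against 4.51% and 1.12% of all genes. Their median difference was 0.64, and 0.54 over the 61 above background on both arrays, against medians of 0.08 and 0.03 for all genes. The median of the 72 stayed between 0.54 and 0.64 under the other settings. In such bulk RNA, more cells in G2 or mitosis and more RNA per cell cannot be told apart. The same 72 genes had medians of 0.05 and 0.24 with C-30 at 0.5 and 2 µM, against the same vehicle array. Over all 6070 genes the C-30 medians were -0.07 and -0.11.

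Among cyclins, kinases and the machinery of anaphase, 17 of 22 genes were higher and 5 passed 2-fold. CCNB2 (chr15:59105146-59125045), a cyclin that activates the mitotic kinase, had a signal of 11.14 with No.10-3, 10.22 and 10.85 with C-30 at 0.5 and 2 µM, and 9.15 with vehicle. The No.10-3 array was the highest of the 4 and its difference from vehicle was 1.99, or 3.97-fold. CDK1 (chr10), the kinase itself, stood at 10.43 with No.10-3, 10.37 and 10.75 with the C-30 doses and 9.14 with vehicle, so that vehicle was the low array. For PTTG1, the gene of securin, which restrains the protease that separates sister chromatids, the signals were 11.04, 9.97, 10.39 and 9.78 in that order. NEK2, a centrosome kinase gene, was higher by 1.09 and INCENP, the scaffold gene of the chromosomal passenger complex, by 1.08. CCNB1 stood at 0.83, the CDK1 inhibitor gene WEE1 at 0.79, AURKA at 0.76 and BIRC5, the gene of survivin, at 0.66. On the other side CDC25B, a phosphatase gene that activates CDK1, was at -0.59. Of the transcription factors that drive these genes, FOXM1 had 11.62 with No.10-3 and 11.40 with vehicle, and MYBL2 11.41 and 11.69.

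Spindle and cytokinesis genes had a median of 0.97. All 17 were above vehicle, although TACC3, at 0.05, lay under the median of all genes, and 7 passed 2-fold. Of the 13 above background on both arrays, 4 passed it, and their median was 0.67. ANLN (chr7:36389862-36453791) encodes anillin, a scaffold of the contractile ring. Its signal was 13.44 with No.10-3, 11.96 and 12.38 with C-30 at 0.5 and 2 µM, and 11.56 with vehicle, a difference of 1.88 for No.10-3. DLGAP5, which encodes a spindle protein that bundles microtubules, had 11.59 with No.10-3, 10.39 and 10.31 with the C-30 doses and 9.78 with vehicle. TOP2A (chr17:40388525-40417896), the topoisomerase that untangles replicated chromosomes, had 12.89 with No.10-3, 11.39 and 11.53 with C-30 and 11.33 with vehicle. In TOP2A the No.10-3 array stood apart and the other 3 lay within 0.20 of each other. CKAP2, of a microtubule-stabilising protein, was higher by 1.21. ASPM, CEP55 and DEPDC1 were above background with No.10-3 and under it with vehicle, at 7.28 against 6.02, 7.74 against 6.58 and 8.23 against 7.20. Of these, only DEPDC1 and CEP55 gave a bound of more than 1-fold against the vehicle level, at least 1.87-fold and 1.33-fold. The proliferation marker MKI67 had 13.90 with No.10-3 and 13.28 with vehicle.

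Of 24 kinetochore and checkpoint genes, 18 were higher and 4 passed 2-fold, 3 of which were above background on 1 array. CENPF (chr1:214603195-214664571), which encodes a large kinetochore protein made in G2, was among the highest genes. It stood at 9.37 with No.10-3, 8.31 and 7.98 with C-30 at 0.5 and 2 µM, and 5.92 with vehicle, where it was under background, so that it was at least 4.12-fold higher. CENPN, of the inner kinetochore, had 10.74 with No.10-3 and 9.40 with vehicle. CENPI and KNL1, of the inner and outer kinetochore, were at 8.09 and 8.34 with No.10-3 and under background at 6.76 and 7.18 with vehicle. The checkpoint kinase genes BUB1 and TTK were higher by 0.97 and 0.93, and BUB3 and the microtubule-binding NDC80 by 0.90 and 0.85. Above background on both arrays, the 18 genes of this list had a median of 0.10 and CENPN alone passed 2-fold, while a background level at the 99th percentile of the negative controls gave a median of 0.55. Of 9 mitotic kinesins, 8 were higher, with a median of 0.84, or 0.76 over the 8 above background on both arrays. KIF11, the motor that pushes spindle poles apart, had 8.96 with No.10-3, 8.97 and 7.77 with C-30 at 0.5 and 2 µM and 7.55 with vehicle. KIF14, a kinesin of cytokinesis, had 7.61 with No.10-3 and 5.84 with vehicle, at least 1.22-fold higher. KIF20A, KIF22 and KIF4A were higher by 0.99, 0.86 and 0.84.

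Chromosome structure genes were higher in 17 of 19 cases, and 9 of the 19 (47.4%) passed 2-fold upwards, against 4.51% of all genes, with a median of 0.80. Above background on both arrays, 5 of 13 passed it, against 2.86% of all genes, with a median of 0.59. Cohesin rings hold sister chromatids together, condensin compacts them, and SMC5 and SMC6 form another ring with a part in repair. SMC3, a cohesin subunit, had a signal of 9.99 with No.10-3, 10.29 and 9.71 with C-30 at 0.5 and 2 µM, and 8.74 with vehicle, so the vehicle array was the low one. NCAPG and SMC4, of condensin, had 9.77 and 13.32 with No.10-3 against 8.44 and 12.11 with vehicle. PDS5A, a cohesin regulator, had 11.23 with No.10-3 and 9.87 with vehicle, and SMC6 9.40 and 8.32. The cohesin loader gene NIPBL, SMC2, SMC5 and the acetyltransferase gene ESCO2 were above background with No.10-3 alone. SMC1A and NCAPD3 were each at -0.03. The medians of this list with C-30 were 0.88 at 0.5 µM and 0.32 at 2 µM, against the same vehicle array. All genes had C-30 medians of -0.07 and -0.11. The cohesin and condensin genes are long, with a median span of 71.4 kb against 32.2 kb for all genes, and long genes in general had higher differences.

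Centrosome genes were higher in 11 of 13 cases with a median of 0.74, and 2 (15.4%) passed 2-fold upwards, against 4.51% of all genes. The median was 0.78 over the 10 above background on both arrays, and 0.36 without a filter on signal. PCM1, the scaffold of the satellites that ferry proteins to the centrosome, had 10.01 with No.10-3, 9.31 and 9.20 with C-30 at 0.5 and 2 µM, and 8.10 with vehicle. CEP170, a protein of the mother centriole, had 9.24 with No.10-3 and 7.76 and 8.09 with C-30, and lay 1.84 above vehicle with No.10-3. CEP128, SASS6, CEP78 and NIN lay between 0.81 and 0.97. Of 14 measured tubulin genes none was 2-fold higher and TUBA4A alone was 2-fold lower, with 11.58 on the No.10-3 array and 12.68 on the vehicle array.

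Lists of genes that act earlier in the cycle had medians between -0.23 and 0.30. Of 33 DNA replication genes, 11 were higher and 22 lower, none passed 2-fold, and the median was -0.10. ORC5, of the origin recognition complex, had 10.25 with No.10-3 and 9.26 with vehicle, and the helicase gene MCM6 8.37 and 7.47. At the other end CDC45, of the active helicase, had 9.14 with No.10-3 and 9.93 with vehicle. The G1/S list had a median of -0.11 over 16 genes and only RB1, which restrains E2F factors, reached 2-fold, with 8.88 on the No.10-3 array and 7.88 on the vehicle array. E2F1 was under background with No.10-3, at 6.73, against 7.44 with vehicle. CDKN1A, which encodes the inhibitor p21, had 8.06 with No.10-3, 8.75 and 9.17 with C-30 at 0.5 and 2 µM, and 8.54 with vehicle. Nucleotide synthesis genes had a median of 0.30 over 22 genes with none past 2-fold, and the ribonucleotide reductase gene RRM1 was the highest of them at 0.77. The histone genes that are read during S phase were lower in 40 of 47 cases with a median of -0.23, where the C-30 medians were -1.11 at 0.5 µM and -2.54 at 2 µM. H2BC14 alone passed 2-fold with No.10-3, at 12.15 against 13.23 with vehicle. Histone genes are near-identical copies, so their single values are uncertain.

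Within the mitotic lists, the 36 genes with the CHR letters in the promoter had a median difference of 0.73 and 13 of them passed 2-fold. The 22 without the letters had a median of 0.47 and 4 passed. In the spindle and cytokinesis list 12 of 14 promoters held the letters, and in the cohesin and condensin list 7 of 16. Over all genes 2-fold higher they occurred in 46 of 235 promoters (19.6%), and over genes 2-fold lower in 2 of 58 (3.45%).

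**Figure D2:**
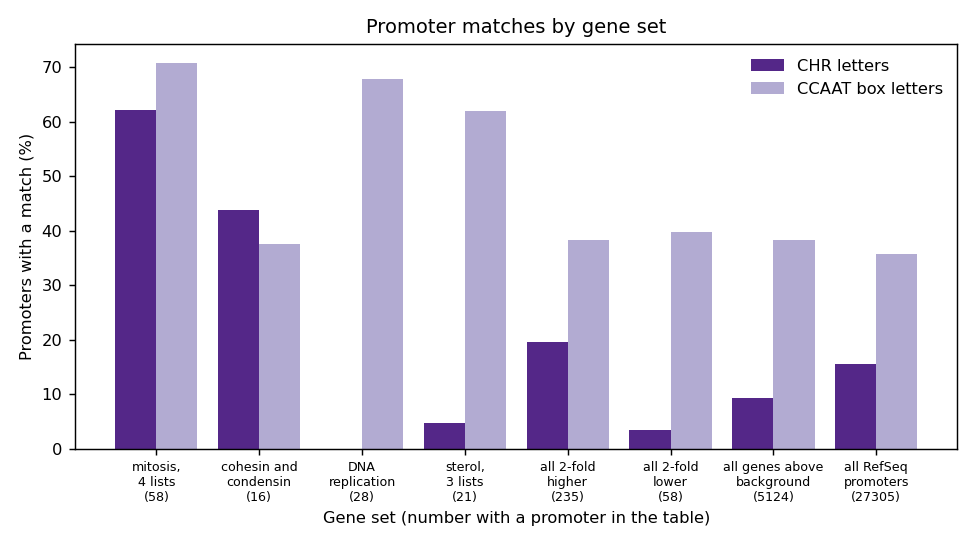
Bars give the percent of promoters in each gene set that hold the CHR letters TTTGAA (dark) or the CCAAT box letters (light) on either strand. The CHR share is 62.1% for mitotic genes, 0 for DNA replication genes and 15.4% for all RefSeq promoters, while the CCAAT shares of the mitotic and replication sets are 70.7% and 67.9%.

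**Figure D3:**
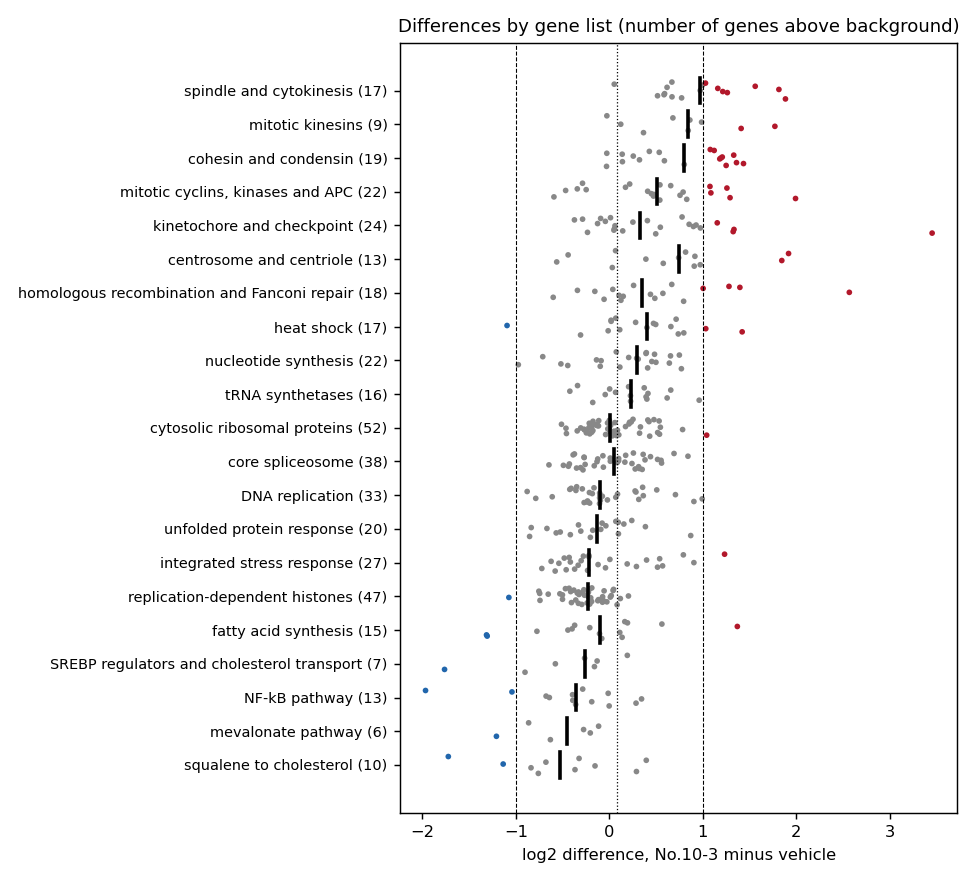
Each point is 1 gene above background in a list, placed by its log2 difference, No.10-3 minus vehicle, in red past 2-fold upwards and in blue past 2-fold downwards. Black bars are list medians, the dotted line is the median of all genes (0.08), and mitotic lists lie at the right while sterol and NF-kB lists lie at the left.

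Genes of cholesterol synthesis and its control were lower with No.10-3. Over 3 lists, 20 of 23 measured genes were lower, 4 (17.4%) passed 2-fold downwards and none upwards, with a median of -0.37. Over all genes 43.0% had a negative difference and 1.12% passed 2-fold downwards. That median stayed between -0.50 and -0.35 under the other settings. With C-30 at 0.5 and 2 µM the same genes had medians of 0.02 and 0.11, against the same vehicle array. The C-30 medians of all genes were -0.07 and -0.11. SREBF2 (chr22:41833105-41907305), which encodes the regulator SREBP-2, had a signal of 7.75 with No.10-3, 8.60 and 8.54 with C-30 at 0.5 and 2 µM, and 9.51 with vehicle. The No.10-3 array was the lowest of the 4, with a difference of -1.76, or 3.39-fold lower. SREBF1 stood at 7.56 with No.10-3, 7.58 and 7.06 with C-30 and 8.46 with vehicle. SCAP, the escort of SREBP, had 9.50 with No.10-3 and 9.66 with vehicle, while INSIG1, its retention factor, was under background with No.10-3, at 7.01, against 7.59 with vehicle.

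All 6 measured genes of the mevalonate steps were lower, with a median of -0.45. HMGCS1 (chr5:43287470-43313412), the synthase that makes HMG-CoA, had 9.71 with No.10-3, 11.49 and 12.26 with C-30 at 0.5 and 2 µM, and 10.92 with vehicle. No.10-3 thus lay under vehicle and both C-30 arrays above it. IDI1, the isomerase gene, had 8.88 with No.10-3 and 10.10 and 11.61 with C-30, and differed from vehicle by -0.11 with No.10-3. The farnesyl diphosphate synthase gene FDPS was lower by a difference of -0.86, and the thiolase gene ACAT2 by -0.63. In the later steps, from squalene to cholesterol, 8 of 10 genes were lower with a median of -0.52. DHCR7 (chr11:71427287-71449043), the enzyme of the last step, had 12.73 with No.10-3, 13.66 and 14.39 with C-30, and 14.46 with vehicle. MSMO1, a sterol C4 oxidase, had 10.22 with No.10-3, 11.62 and 12.07 with C-30 and 11.35 with vehicle. TM7SF2, SQLE and NSDHL were at -0.84, -0.76 and -0.68, while HSD17B7 and LSS stood at 0.39 and 0.29.

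Of 15 fatty acid genes, 9 were lower, with 2 past 2-fold downwards, 1 upwards and a median of -0.11. Over all genes 1.12% passed 2-fold downwards and 4.51% upwards. SCD (chr10:100347233-100364826), the stearoyl-CoA desaturase, had 13.29 with No.10-3, 14.30 and 14.71 with C-30 at 0.5 and 2 µM, and 14.60 with vehicle. FASN, the fatty acid synthase, had 9.03 with No.10-3, 9.63 and 9.06 with C-30 and 10.33 with vehicle. The desaturase gene FADS2 was at -0.77. ACSL4, which activates long polyunsaturated fatty acids, was barely above background with No.10-3, at 7.09, and under it with vehicle, at 5.72. Other lipid genes among the lowest were BSCL2, which encodes seipin of lipid droplets, with 9.68 on the No.10-3 array and 10.96 on the vehicle array, and GBA2, a glucosylceramidase gene that was above background with vehicle alone.

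**Figure D4:**
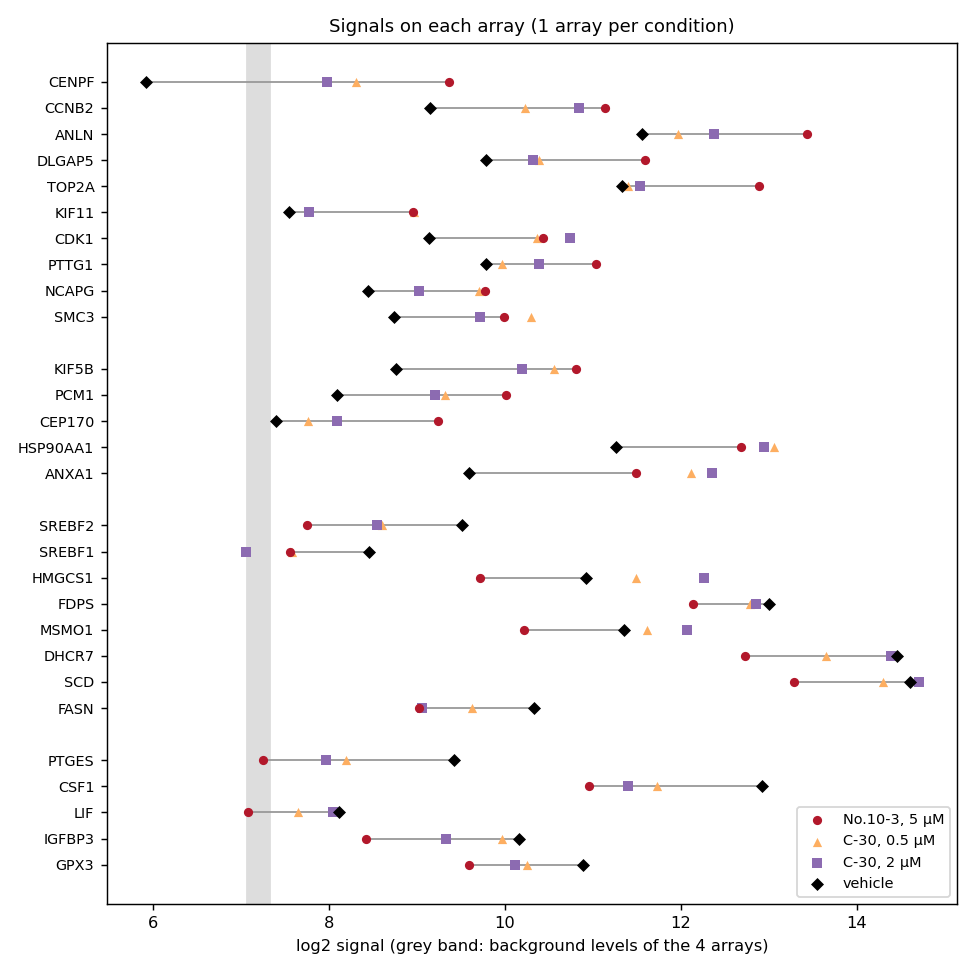
Log2 signals of 28 genes on the No.10-3 (red circle), C-30 0.5 µM (triangle), C-30 2 µM (square) and vehicle (black diamond) arrays, 1 array each, with a grey line joining No.10-3 and vehicle and a grey band over the background levels of 7.06 to 7.32. From the top, the blocks are mitotic and chromosome genes, other higher genes, sterol and fatty acid genes, and other lower genes, and HMGCS1 and MSMO1 lie under vehicle with No.10-3 and above it with C-30.

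Secreted and inflammatory genes were also among the lowest. PTGES (chr9:129738349-129753042), the inducible synthase of prostaglandin E2, had 7.25 with No.10-3, 8.20 and 7.97 with C-30 at 0.5 and 2 µM, and 9.43 with vehicle. It was the lowest gene above background on both arrays, at -2.18, or 4.52-fold lower. CSF1 (chr1:109910506-109930992), the growth factor of macrophages, had 10.95 with No.10-3, 11.73 and 11.40 with C-30 and 12.92 with vehicle. IGFBP3, which binds insulin-like growth factors, had 8.42 with No.10-3, 9.97 and 9.33 with C-30 and 10.16 with vehicle. In the NF-kB list, which holds CSF1, 11 of 13 genes were lower with a median of -0.36. LIF, a cytokine gene of the interleukin-6 family, had 7.07 with No.10-3, just above the level there, and 8.12 with vehicle. TNFAIP3 and TNFAIP2 were at -0.68 and -0.64, and the inhibitor gene NFKBIA at -0.39. The other genes of prostaglandin synthesis and export that were measured, PTGES2, ABCC4 and PTGES3, stood at -0.58, -0.03 and 0.03.

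Stress lists divided. Heat shock genes were higher in 14 of 17 cases with a median of 0.40. HSP90AA1, the inducible HSP90 gene, had 12.69 with No.10-3, 13.05 and 12.95 with C-30 at 0.5 and 2 µM, and 11.27 with vehicle. HSPD1, the mitochondrial chaperonin, had 12.39 with No.10-3 and 11.36 with vehicle. DNAJB1, a cochaperone that is a common readout of the heat shock factor, went the other way with 11.15 on the No.10-3 array, 11.40 and 11.82 with C-30 and 12.24 with vehicle. HSPA1A, the inducible HSP70 gene, was at -0.31. Genes of the unfolded protein response had a median of -0.13 over 20 genes with none past 2-fold, and DNAJB11, SYVN1 and HERPUD1 were the lowest at -0.85, -0.84 and -0.67. The integrated stress response list had a median of -0.22 over 27 genes. In it the factor ATF4 had 10.04 with No.10-3, 10.69 and 10.74 with C-30 and 10.62 with vehicle. The one gene past 2-fold, the kinase gene EIF2AK4, was above background with No.10-3 alone.

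Among homologous recombination and Fanconi repair genes, 14 of 18 were higher and 4 (22.2%) passed 2-fold upwards, against 4.51% of all genes. Of these 4, 3 were above background with No.10-3 alone. Above background on both arrays, 1 of 12 passed it, against 2.86% of all genes. The median of the list was 0.35, or 0.11 over the 12 genes above background on both arrays. It turned to -0.041 with the level at the 99th percentile of the negative controls. ATM, the kinase that senses double-strand breaks, had 9.03 with No.10-3, 9.33 and 8.84 with C-30 at 0.5 and 2 µM, and 7.75 with vehicle. GEN1, a resolvase of recombination intermediates, had 7.67 with No.10-3 and 5.10 with vehicle, at least 1.27-fold higher. NBN and RAD50, of the complex that binds broken ends, had 8.21 and 7.57 with No.10-3 against 6.82 and 6.57 with vehicle. MMS22L, which acts at stalled forks, had 9.23 with No.10-3, 8.59 and 7.94 with C-30 and 7.59 with vehicle.

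The remaining highest genes above background on both arrays have varied roles. KIF5B (chr10:32009015-32056425), the heavy chain of conventional kinesin, led them with 10.81 on the No.10-3 array, 10.55 and 10.19 with C-30 at 0.5 and 2 µM, and 8.76 with vehicle, a difference of 2.04 or 4.12-fold. DST, a linker of cytoskeletal filaments, had 11.86 with No.10-3, 11.77 and 10.81 with C-30 and 9.89 with vehicle. For ANXA1, which encodes annexin A1, the signals were 11.49, 12.12, 12.36 and 9.59 in that order, so both C-30 arrays lay above No.10-3. The kinase gene SLK was higher by 1.76, CRYBG1 by 1.63, DNAJC13 of endosomes by 1.63, carboxypeptidase D (CPD) by 1.61 and NMD3, an export adaptor of the large ribosomal subunit, by 1.52. In these genes the C-30 arrays lay above vehicle by 0.61 to 1.61 at 0.5 µM and by 0.56 to 1.13 at 2 µM. They were picked by their difference from the same vehicle array, so a low vehicle signal alone would give this. Of 23 motors of interphase cells, 14 were higher, near the share of all genes, and the median was 0.11. The 4 past 2-fold upwards made up 17.4%, against 4.51% of all genes. Of these, KIF5B alone was above background on both arrays, where the 18 motors had a median of -0.01. The myosin gene MYO5A, the kinesin gene KIF21A and the dynein gene DYNC1I2 were above it with No.10-3 alone, at least 2.07-fold, 1.11-fold and 1.06-fold higher. At the low end of the list DYNC1H1, the heavy chain of dynein, had 14.74 with No.10-3 and 15.58 with vehicle.

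The lowest genes above background on both arrays that were not yet named follow. SKAP2, a signalling adaptor, had 7.84 with No.10-3, 9.11 and 8.84 with C-30 at 0.5 and 2 µM, and 9.30 with vehicle, so No.10-3 alone was low. GYS1, the muscle form of glycogen synthase, had 10.00 with No.10-3, 9.75 and 9.59 with C-30 and 11.40 with vehicle, so vehicle alone was high. RUSC2 was lower by a difference of -1.35, the secreted glutathione peroxidase gene GPX3 by -1.30, the cyclophilin gene PPIL2 by -1.28 and C1QL1 by -1.23.

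Genes above background on 1 array give only a bound, and those named were picked by a difference that includes a signal under background, so they are given in no order. Beside CENPF and GEN1 they were, with No.10-3, the ubiquitin ligase gene WWP1, at least 2.16-fold higher, the lipid kinase gene PIK3C2A, at least 1.58-fold, and the nuclear receptor corepressor gene NRIP1, at least 2.34-fold. CCDC88A, of an actin-binding protein called girdin, was at least 3.75-fold higher, with 9.23 on the No.10-3 array and 7.22 on the vehicle array. QSER1 and SMCHD1, a chromatin protein of X inactivation, were at least 3.16-fold and 3.20-fold higher. FRYL and PAXBP1 were at least 1.37-fold and 1.12-fold higher. Above background with vehicle alone, JDP2, a repressor of the AP-1 family, was at least 2.10-fold lower, with 6.74 on the No.10-3 array and 8.13 on the vehicle array. The potassium channel subunit gene KCNAB2 was at least 2.18-fold lower and the glutathione transferase gene GSTM1 at least 2.08-fold. The bounds of ZNF362, PCNX3, PHF1, SUSD1, ATG4B, GBA2 and KHK lay between 1.25-fold and 1.90-fold.

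Genomic span went with the differences. The 274 higher genes had a median genomic span of 65.5 kb and the 68 lower ones of 21.2 kb, against 32.2 kb for all 6070. In 10 bins of equal size by span, 1.32% of the 1821 genes in bins 1 to 3, the shortest, passed 2-fold upwards, and 8.57% of the 1821 in bins 8 to 10. The share was 0.82% in bin 1, up to 5.61 kb, and 10.4% in bin 9, between 88.6 and 144 kb. Lower genes made up 0.82% in bin 1 and again in bin 10, with 1.98% in bin 3 as the highest share and 0.33% in bin 9 as the lowest. Among genes above background on both arrays, bins 1 and 10 held 0.76% and 6.25% of higher genes. The median difference was -0.06 in bin 1 and 0.27 in bin 9. With C-30 the medians of these bins were -0.17 and 0.02 at 0.5 µM, and -0.29 and -0.02 at 2 µM, against the same vehicle array. The mitotic genes had a median span of 24.9 kb. Their 49 members at or under the median span of all genes had a median difference of 0.50, against -0.02 for all genes of that span, and the 23 longer ones 0.85, against 0.20. The cohesin, centrosome and recombination lists hold long genes. The part of span in the differences of these lists and of the mitotic genes was not tested.

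**Figure D5:**
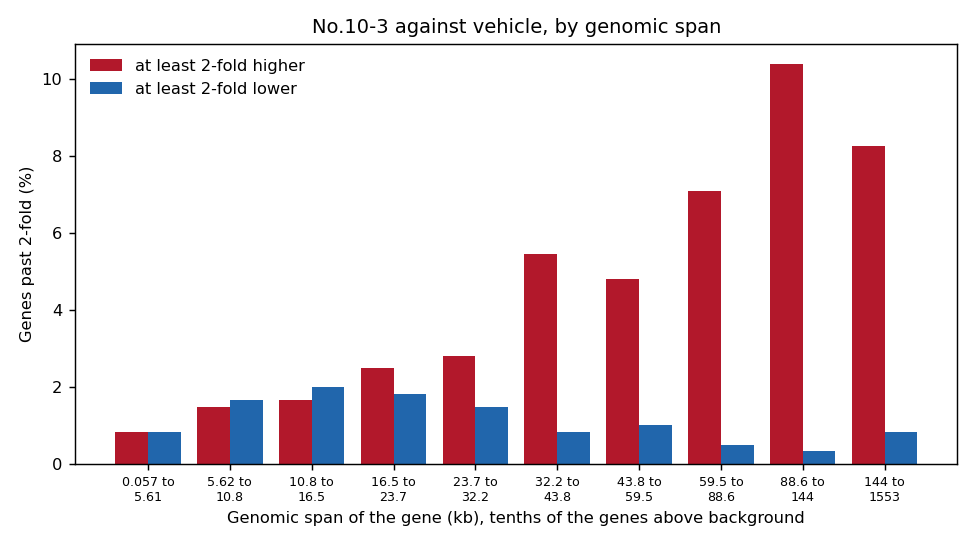
Bars give the percent of genes past 2-fold upwards (red) and downwards (blue) with No.10-3 in 10 bins of the 6068 genes with coordinates, ordered by genomic span in kb on the x axis. The higher share is 0.82% in bin 1 and 10.4% in bin 9, while the lower share is 1.98% at its highest, in bin 3.

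Chromosomes differed, in part along with span. On chromosome 13, 9.59% of 73 genes were at least 2-fold higher, on chromosome 3, 9.46% of 317, and on chromosome 4, 8.29% of 181. On chromosome 19, 1 of 374 genes was 2-fold higher and 6 were lower, and on chromosome 22, 0 of 135 were higher and 5 were lower. The median span was 71.5 kb on chromosome 13 and 17.9 kb on chromosome 19, but 31.2 kb on chromosome 22, close to that of all genes. On chromosome 20 it was 30.6 kb, with 0.56% of 177 genes 2-fold higher. On chromosome 6 it was 21.6 kb, with 3.86% of 311 genes higher.

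The counts differed by mean signal as well. Of 4 bins of mean signal, the lowest held 7.51% of genes past 2-fold upwards and 1.71% downwards, and the highest 2.44% and 0.99%. The lowest bin, with means between 6.29 and 7.86, reaches under the background levels. Genes there with a mean under the level were admitted by their higher signal alone, so the share of this bin is in part set by the rule. Medians of the lists of upkeep genes that follow lay between -0.14 and 0.09. Others lay outside this range, among them ribosome biogenesis at 0.26, tRNA synthetases at 0.23 and lysosomal genes at -0.21. The 52 cytosolic ribosomal protein genes had a median of 0.00 and RPL14 alone passed 2-fold, with 14.47 on the No.10-3 array and 13.43 on the vehicle array. The 30 proteasome genes had a median of -0.06, with PSMD3 at 12.43 with No.10-3 and 13.52 with vehicle. The 63 respiratory chain genes had a median of 0.09 with none past 2-fold. Glycolysis and hypoxia genes were lower in 18 of 25 cases with a median of -0.14. In that list HIF1A, the oxygen-regulated factor, had 13.44 with No.10-3 and 12.42 with vehicle, while its target PFKFB3, an activator of glycolysis, had 7.90 and 8.95.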

How the data were processed

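Biotin-labelled total RNA of DU145 cells was hybridised to arrays, per the labels' protocols. Per the submitters' processing notes, the authors used Affymetrix Expression Console 1.3.0 with RMA. The deposited values were taken as log2 signals, which is inferred from the range of the values and what RMA usually gives. The highest value, 19.7, is above what scanner readings span on that scale, so 2-fold holds only on the scale of these values. The build of that step is not given in the sources used here.

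The files hold 24351 probe sets. Of these 17709 had 1 gene symbol in the platform annotation, 2903 were controls and the rest had no symbol. After an update through Entrez identifiers there were 17687 genes. The 20 genes with several probe sets took their mean. Some genes of the lists had no row and were not analysed here. Coordinates, spans and promoters come from RefSeq tables of GRCh38.p14.

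The difference is the No.10-3 signal minus the vehicle signal, counted at 1 or more either way. With 1 array per condition there is no test. A bound sets the brighter signal against the background level of the other array. Positive counts of a list are genes with a difference above 0. The members, the 66 gene lists and the alternatives were chosen with earlier results of these data known. The text names the 15 highest and lowest genes above background on both arrays, the 10 highest and lowest above it on 1 array, the genes of each list past 2-fold, up to 6 others of a list by size, and a set of regulators. The ranks leave out uncharacterised loci and genes of olfactory receptors, immune segments and small RNAs. Other genes named, such as MKI67, NFKBIA, KRT8 and the genes nearest the background level, are markers or were chosen after their values were seen. The counting was tested on simulated data. Calculations ran in Python 3.11.15 (numpy 2.4.6, pandas 2.3.3) with the lowess of statsmodels 0.14.6 and plots by matplotlib 3.10.9.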

Additional observations from a re-analysis of the deposited data

Results flagged for a closer look

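Probe sets without a gene symbol enter no comparison of genes. Of the 3739 that are no control, 912 met the signal rule, and 33 of these were at least 2-fold higher with No.10-3 (3.62%) and 16 at least 2-fold lower (1.75%), with a median difference of 0.01. They stand out only as a signal in data outside the named genes. Of the positive control probe sets that met the rule, 4.10% were higher and 1.78% lower.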

How the results depend on the processing

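The 274 higher and 68 lower genes came to 950 and 437 at 1.5-fold, 151 and 44 when both arrays had to be above background, 453 and 189 without a filter on signal, 96 and 39 with the 99th percentile of the negative controls, and 165 and 114 after a lowess correction with a fraction of 0.3. They stayed within 1.5 times after quantile normalization (196 and 84), after centring (198 and 92), with the brightest probe set or the series value table (274 and 68 each), and under 2 settings added after seeing the data: 1 background level for both arrays (255 and 68) and a mean signal above the mean level (207 and 52). Of 621 list medians under the alternatives, 566 moved by less than the robust SD of the ERCC probe sets and 43, in 19 lists, changed sign. Of these, 37 belonged to lists whose median as reported lay within that SD of 0. The other 6 were the interferon list without a filter (-0.048) and after lowess (-0.20), the prostaglandin list (0.033), the MYC network (-0.14) and integrins (-0.082) without a filter, and recombination repair at the 99th percentile (-0.041). Fewer or more genes enter under those filters, and the cause was not tested for lowess. ERCC probe sets are few and match no human gene, so their spread is a narrow yardstick. No paired analysis was possible because each condition has 1 array. Genes near background give only bounds, and differences smaller than those among the control probe sets were not detectable here.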

Other observations

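Further lists of chromatin, transport and growth held a few members past 2-fold, and their counts of higher genes are to be read against 56.9% over all genes. Of 22 remodeller genes 12 were higher, with a median of 0.16, and 3 (13.6%) passed 2-fold upwards, against 4.51% of all genes. Above background on both arrays, 2 of 20 passed it, against 2.86% of all genes, with a median of 0.03. SMARCE1, of the SWI/SNF complex, had 11.61 with No.10-3 and 10.51 with vehicle, and BAZ1A, of an ISWI complex, 9.67 and 8.66. CHD1, a remodeller gene above background with No.10-3 alone, was at least 1.18-fold higher. At the low end CHD3 had 7.51 with No.10-3 and 8.40 with vehicle, and ARID1A 9.58 and 10.34. Of 26 nuclear pore genes 16 were higher, with a median of 0.12. RANBP2, of the cytoplasmic filaments, had 8.70 with No.10-3 and 7.45 with vehicle, and TPR, of the nuclear basket, was at least 1.36-fold higher. Zinc finger genes of the ZNF family were higher in 82 of 122 cases with a median of 0.24. ZNF800, ZNF37A and ZNF483 passed 2-fold upwards at 1.43, 1.38 and 1.11, the last under background with vehicle, and ZNF362 downwards. Ribosome biogenesis genes were higher in 21 of 30 cases with a median of 0.26. HEATR1, of the early processing complex, had 11.91 with No.10-3 and 10.73 with vehicle, and UTP18, of the same complex, was at least 1.60-fold higher. In other lists the initiation factor gene EIF3E, the ubiquitin ligase gene TRIP12 and the Mediator gene MED13 were above background on both arrays and higher by 1.16, 1.06 and 1.03. Above it with No.10-3 alone, the demethylase family gene JMJD1C, the autophagy receptor gene TAX1BP1 and the Wnt regulator APC were at least 1.59-fold, 1.39-fold and 1.24-fold higher. The ubiquitin ligase gene HECW1, above it with vehicle alone, was at least 1.26-fold lower.

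Surface and growth genes differed one by one. The integrin gene ITGA6 had 9.73 with No.10-3, 9.35 and 8.48 with C-30 at 0.5 and 2 µM, and 8.47 with vehicle, while ITGA5 had 7.92 with No.10-3, 7.43 and 7.56 with C-30 and 9.03 with vehicle. ITGAV and ZEB1, a repressor of epithelial genes, were above background with No.10-3 alone, at least 1.25-fold and 1.72-fold higher. The intermediate filament gene VIM had 15.22 with No.10-3, 14.12 and 14.09 with C-30 and 14.30 with vehicle. Of the 3 measured genes of the mesenchymal list, which holds ZEB1 and VIM, the lowest was at -0.87. The 2 of them above background on both arrays had a median of 0.03. The epithelial list had a median of 0.43 over 10 genes, of which 6 were higher. EGR1, an immediate early gene, had 8.75 with No.10-3 and 7.53 with vehicle. DKK1, a secreted Wnt antagonist, had 9.64 with No.10-3, 8.94 and 9.22 with C-30 and 8.57 with vehicle. No list of BCL2 family genes, NRF2 targets or lysosomal genes held a gene past 2-fold, with medians of 0.09, -0.11 and -0.21. MYC differed by 0.23 and XBP1 by -0.33.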
